A study of Mus musculus with 6 samples.

Results

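The genes described here are 10 genes of fat cells, namely the hormone genes Lep (leptin) and Adipoq (adiponectin), the secreted protease gene Cfd (adipsin), the lipid droplet genes Plin1, Plin4 and Cidec, the fatty acid genes Fabp4, Lpl and Scd1, and the transcription factor gene Pparg. They were taken by symbol from a table of 24411 genes, and all 10 passed the filter on low counts that left 13466 genes to test. All samples were Achilles tendons taken at 18 weeks of age, from mice of the C57BL/6 strain. The mutant group, 3 libraries with the genotype Scx-Cre/Piezo1 GOF (Piezo1 GOF here), joins a gain-of-function allele of Piezo1, which encodes a cation channel opened by force, to a Cre transgene under control of the tendon gene Scx. The other 3 libraries were WT, for which no Cre and no altered allele is named. Scx is a gene of tendon cells, so the Cre was not aimed at fat cells. The sources used here give neither sex nor how much tissue around the tendon was taken, and they do not say that each library came from its own animal, so p-values measure the spread between these samples only.

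A white adipocyte stores triglyceride in a large droplet. Perilipins coat that droplet, and the CIDE protein encoded by Cidec helps droplets to merge. Pparg encodes the nuclear receptor that drives fat cell formation, and many of the other genes here are its known targets. Leptin is released by fat cells in step with the fat they hold and acts on the brain to restrain feeding, whereas adiponectin acts on liver and muscle. The Achilles tendon lies against a fat pad and is wrapped in loose tissue that can hold fat cells. Several of the 10 genes are also used outside fat: Lpl and Plin4 in skeletal muscle, Fabp4 in capillary endothelium and macrophages, and Scd1 in sebaceous glands.

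The start regions of 3 of the genes are shown, chosen after their values were seen. As described further on, Lep was apart between the genotypes, Adipoq leaned the same way with overlap, and Plin4 had a negative fold change. No link between the motifs and the levels was tested. They come from RefSeq on build GRCm38.p6, and each runs from 250 bases before to 50 bases after the annotated start, 5′ to 3′ along the gene. Capitals mark matches, on either strand, to TTGCGCAA (a C/EBP palindrome), TATAA (TATA box), GGGCGG (GC box), CCAAT (bound by the factor NF-Y), AGGTCA (the core of nuclear receptor sites) and the DR1 arrangement bound by PPAR and RXR, in which AGGTCA is repeated after a single base.
Lep, chr6:29059971-29060270, plus strand: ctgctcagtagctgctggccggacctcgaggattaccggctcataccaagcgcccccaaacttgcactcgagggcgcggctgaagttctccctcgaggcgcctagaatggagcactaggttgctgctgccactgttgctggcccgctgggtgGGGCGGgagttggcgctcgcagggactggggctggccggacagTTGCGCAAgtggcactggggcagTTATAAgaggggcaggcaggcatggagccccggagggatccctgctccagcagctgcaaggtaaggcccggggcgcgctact
Adipoq, chr16:23146286-23146585, plus strand: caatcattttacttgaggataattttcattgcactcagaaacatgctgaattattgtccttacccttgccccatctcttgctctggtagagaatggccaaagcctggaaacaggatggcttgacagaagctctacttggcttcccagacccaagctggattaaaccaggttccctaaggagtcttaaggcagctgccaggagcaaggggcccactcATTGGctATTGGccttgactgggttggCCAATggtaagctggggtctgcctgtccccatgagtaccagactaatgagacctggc
Plin4, chr17:56109733-56110032, minus strand: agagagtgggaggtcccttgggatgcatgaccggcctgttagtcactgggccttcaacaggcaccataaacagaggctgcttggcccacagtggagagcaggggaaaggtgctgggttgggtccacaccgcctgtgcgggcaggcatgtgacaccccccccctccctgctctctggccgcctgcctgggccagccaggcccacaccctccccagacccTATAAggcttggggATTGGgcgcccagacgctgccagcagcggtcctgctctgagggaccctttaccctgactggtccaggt

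The Lep window held TTGCGCAA at -55, TATAA at -31, with the overlapping reverse match at -32, and GGGCGG at -98, positions being those of the leftmost matched base relative to the start. TTGCGCAA was found in 0.183% of 32851 such windows, TATAA in 24.9% and GGGCGG in 35.7%. The Adipoq window held no TATAA and 3 matches to CCAAT, at -34, -27 and -7, a motif present in 37.4% of windows. The Plin4 window held TATAA at -32 and CCAAT at -18. None of these 3 windows held AGGTCA, which 16.3% of windows do, or the DR1 arrangement, found in 0.0396%. The Pparg windows that start at 115360894 and 115362099 each held AGGTCA. Windows were given for 7 of the 10 genes.

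Leptin had the widest difference between the genotypes among the 10 genes, and most of the others leaned the same way. Neither leptin nor the others passed the edgeR test described below. Adipoq, Plin1 and Cidec, which define fat cells, were detected in all 6 libraries. Of the 10 genes, 8 had a positive log2 fold change (Piezo1 GOF over WT) and 2, Plin4 and Lpl, a negative one. Their median was 1.08, against -0.00 over all 13466 genes tested. By the quasi-likelihood test of edgeR, adjusted over all genes by the method of Benjamini and Hochberg, 0 of the 10 passed 0.05 in either direction, beside a background of 0.0149% of genes called higher and 0.0% called lower. At an unadjusted p under 0.05 the same test gave 6 of the 10 higher, beside 10.2% of all genes, and 1 lower, beside 9.59%. DESeq2 called Lep, Scd1 and Adipoq higher (3 of 10, beside 3.73% of genes) and 0 lower (beside 2.74%). Limma voom with sample quality weights called Lep alone higher (beside 0.72%) and 0 lower (beside 0.141%). The groups did not overlap, with Piezo1 GOF above WT, for Lep, Cidec and Scd1, beside 13.6% of all genes, and with Piezo1 GOF below WT for Lpl, beside 12.1%. Without Piezo1 GOF replicate 3 the median of the 10 genes was 0.55.

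**Figure D1:**
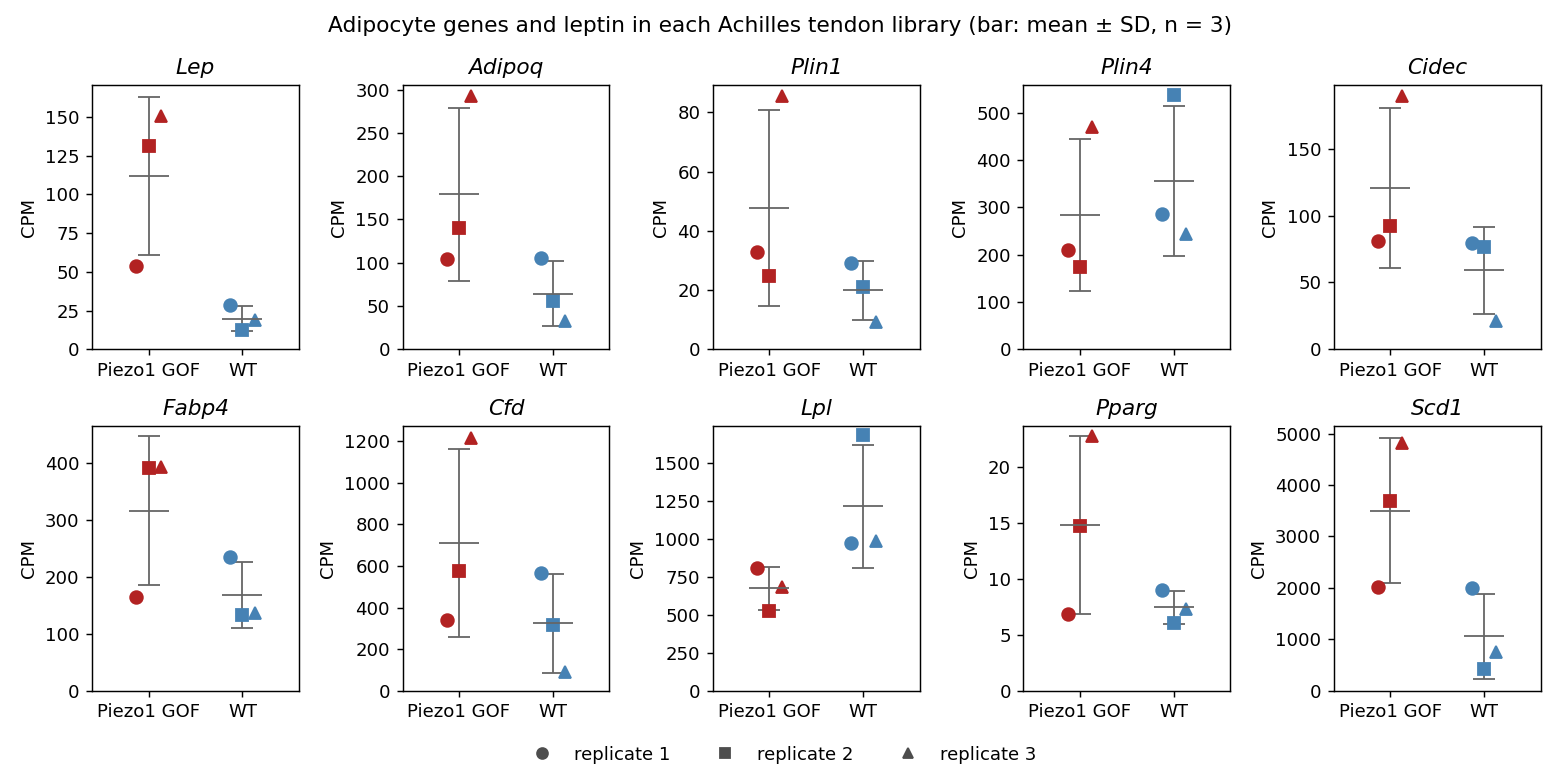
Level of each of the 10 genes in CPM in each library, Piezo1 GOF on the left (red) and WT on the right (blue), with the mean ± SD of 3 libraries in grey and the marker shape giving the replicate. Piezo1 GOF replicate 3 is the highest library for 8 of the 10 genes, and the groups are fully apart for Lep, Cidec, Scd1 and Lpl.

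Levels are CPM, counts brought to one library size. Lep had 53.7, 131 and 150.4 CPM in Piezo1 GOF replicates 1 to 3, against 28.6, 12.2 and 18.7 CPM in WT replicates 1 to 3. All Piezo1 GOF libraries thus lay above all WT libraries, and the lowest of them, replicate 1, stood closest to WT replicate 1. The means were 112 ± 51.2 CPM in Piezo1 GOF and 19.8 ± 8.245 CPM in WT (SD, n = 3 each), a 5.67-fold difference (log2 fold change 2.503 ± 0.439, SE; edgeR adjusted p = 0.0572). Only 79 of the 13466 genes, or 0.587%, had a log2 fold change as high or higher. The adjusted p was not particular to Lep, since markers of other cell types named further on had the same value. The call turned on the processing: Lep passed by DESeq2 (adjusted p = 1.78e-06), by voom (0.0434), by edgeR without a filter on low counts (0.016) and by edgeR without WT replicate 1 (0.037), and edgeR gave 0.0832 to 0.223 without any 1 of the other libraries. Lep (ENSMUSG00000059201.12) spans 29060220 to 29073877 of chromosome 6 (mm10, plus strand), and its counts ran from 413 to 2029 in Piezo1 GOF and from 165 to 266 in WT.

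Adiponectin, the most abundant hormone of fat cells in blood, was less cleanly divided. Adipoq had 104, 141 and 292 CPM in Piezo1 GOF replicates 1 to 3, against 105, 55.9 and 32.4 CPM in WT replicates 1 to 3. Piezo1 GOF replicate 1 and WT replicate 1 were level, and the remaining libraries fell on either side of them. The means were 179 ± 99.6 CPM in Piezo1 GOF and 64.4 ± 37.1 CPM in WT (log2 fold change 1.47 ± 0.49; edgeR adjusted p = 0.18; DESeq2 adjusted p = 0.0332). Without Piezo1 GOF replicate 3 the log2 fold change was 0.93 (edgeR adjusted p = 0.382). Adipoq (ENSMUSG00000022878.5) spans 23146536 to 23158028 of chromosome 16 on the plus strand.

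Adipsin, encoded by Cfd, is the serine protease of the alternative complement pathway and a main secreted product of fat cells. It had 342, 574 and 1216 CPM in Piezo1 GOF, against 565, 316 and 91.1 CPM in WT. The groups overlapped widely, and WT replicate 1 lay above Piezo1 GOF replicate 1. The log2 fold change was 1.13 ± 0.66 (edgeR adjusted p = 0.357) and was 0.499 without Piezo1 GOF replicate 3, 0.69 without WT replicate 3, 1.82 without WT replicate 1 and 1.92 by voom.

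The droplet genes did not move as a block. Plin1, the perilipin of the adipocyte droplet that guards it against lipases, had 33.0, 24.7 and 85.5 CPM in Piezo1 GOF, against 29.2, 21.1 and 9.39 CPM in WT. Its groups overlapped, and Piezo1 GOF replicate 3 was 3.46 times the lowest library of its genotype (log2 fold change 1.26 ± 0.52; edgeR adjusted p = 0.232; 0.54 on the log2 scale without that library). Cidec had 80.8, 92.3 and 189 CPM in Piezo1 GOF, against 79.5, 76.2 and 21.4 CPM in WT. Its groups did not overlap, but by a narrow margin, since Piezo1 GOF replicate 1 and WT replicates 1 and 2 lay close together (log2 fold change 1.03 ± 0.498; edgeR adjusted p = 0.285). The log2 fold change of Cidec was 0.56 without Piezo1 GOF replicate 3, 0.63 without WT replicate 3 and 1.70 by voom. Plin4, a perilipin of nascent droplets in fat and muscle, had 211, 174 and 469 CPM in Piezo1 GOF, against 287, 538 and 244 CPM in WT. The highest library was WT replicate 2, and the groups overlapped (log2 fold change -0.32 ± 0.45; edgeR adjusted p = 0.712). The sign of that value turned without WT replicate 2 (0.10) and by voom (0.062), and it was -0.88 without Piezo1 GOF replicate 3. Plin4 (ENSMUSG00000002831.13; chromosome 17, minus strand, 56100591 to 56109803) overlaps the end of Hdgfl2 on the other strand, and whether counting used strand is not given in the sources used here, so its count is uncertain there.

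Among the fatty acid genes, Scd1 stood highest and Lpl went the other way. Scd1 encodes stearoyl-CoA desaturase, which makes monounsaturated fatty acids. It had 2018, 3681 and 4815 CPM in Piezo1 GOF, against 1988, 419.8 and 758 CPM in WT. The groups did not overlap, although Piezo1 GOF replicate 1 and WT replicate 1 were nearly equal. The means were 3504 ± 1407 CPM in Piezo1 GOF and 1055 ± 825 CPM in WT, a 3.32-fold difference (log2 fold change 1.73 ± 0.62; edgeR adjusted p = 0.196; DESeq2 adjusted p = 0.0148). Without WT replicate 1 the log2 fold change was 2.60. Scd1 (ENSMUSG00000037071.3; chromosome 19, minus strand, 44394455 to 44407879) had fractional counts in all 6 libraries, so some of its reads were divided with other features. Its paralogue Scd2 had 154 ± 13.3 CPM in Piezo1 GOF and 178 ± 183 CPM in WT (log2 fold change -0.21 ± 0.61; edgeR adjusted p = 0.874).

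Fabp4, the fatty acid carrier aP2, had 165, 392 and 394 CPM in Piezo1 GOF, against 235, 133 and 137 CPM in WT. Piezo1 GOF replicate 1 lay below WT replicate 1, so the groups overlapped (log2 fold change 0.91 ± 0.39; edgeR adjusted p = 0.245). Lpl, the lipase that frees fatty acids from circulating lipoproteins at the capillary wall, had 810.4, 526 and 685 CPM in Piezo1 GOF, against 973, 1682 and 982 CPM in WT. Every Piezo1 GOF library lay below every WT library (log2 fold change -0.85 ± 0.36; edgeR adjusted p = 0.241; -0.54 on the log2 scale without WT replicate 2). Lpl (ENSMUSG00000015568.16) spans 68880491 to 68907448 of chromosome 8 (plus strand).

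Pparg was the least abundant of the 10 genes. It had 6.89, 14.7 and 22.8 CPM in Piezo1 GOF, against 9.02, 6.07 and 7.35 CPM in WT. Piezo1 GOF replicate 1 fell within the WT range and the other 2 lay above it (log2 fold change 0.998 ± 0.418; edgeR adjusted p = 0.237; 0.54 on the log2 scale without Piezo1 GOF replicate 3). Its counts were between 53 and 308, and an antisense gene, Gm44079, overlaps it, so reads of the pair cannot be told apart without strand. The table has 1 row for Pparg and does not separate the form made in most tissues from the adipocyte form.

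**Figure D2:**
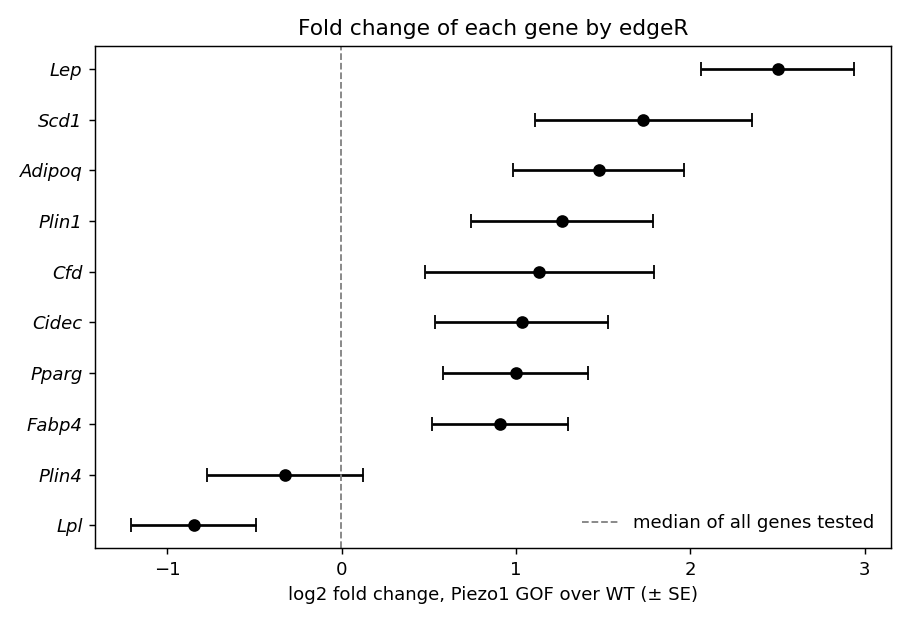
Log2 fold change of each gene, Piezo1 GOF over WT, with its SE from edgeR (3 libraries per genotype), and the median of all genes tested as a dashed line. Lep stands at 2.503, 7 genes lie between 0.91 and 1.73, and Plin4 and Lpl are below 0.

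Divided by the length of the longest principal transcript in GENCODE M21, the levels in Piezo1 GOF ran in the order Cfd, Scd1, Fabp4, Lpl, Adipoq, Cidec, Plin4, Lep, Plin1 and Pparg. Cfd had 771 ± 492 CPM per kb, Scd1 725 ± 291, Fabp4 354 ± 147, Lpl 164 ± 34.6 and Adipoq 139 ± 77.1 CPM per kb (SD, n = 3). In all 9 pairs of neighbours in that order the ranges of the 3 libraries overlapped. In WT they overlapped in 7 of 9, the exceptions being Fabp4 above Plin4 and Cidec above Plin1. Lep had 34.3 ± 15.7 CPM per kb in Piezo1 GOF, in place 8, and 6.08 ± 2.53 CPM per kb in WT, in place 9, where Plin1 had 7.07 ± 3.54. Lpl was in place 4 in Piezo1 GOF and in place 2 in WT, with 295 ± 98.9 CPM per kb. Pparg was last in both, at 8.39 ± 4.51 CPM per kb in Piezo1 GOF and 4.23 ± 0.838 in WT.

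Leptin followed Scd1 most closely over the libraries. The order of the 6 libraries, from Piezo1 GOF replicates 3, 2 and 1 down to WT replicates 1, 3 and 2, was identical for Lep and Scd1. In that order, replicate 1 of Piezo1 GOF and of WT were nearly equal in Scd1 (2018 and 1988 CPM). Pearson's r of log2 CPM between the pair was 0.95 (exact permutation p = 0.0028, the smallest that 6 libraries allow in a two-sided test of pairings; adjusted p = 0.025 over the 9 genes compared with Lep) and Spearman's rho was 1 (exact permutation p = 0.0028, adjusted p = 0.025). Without the 2 libraries farthest from the median of Scd1, WT replicates 2 and 3, r was 0.93. With Lpl, r was -0.91 (exact permutation p = 0.0083; adjusted p = 0.0375) and rho -0.94 (exact permutation p = 0.0167, adjusted p = 0.0375), and r was -0.98 with replicate 2 of both genotypes left out. These coefficients hold the difference between the genotypes as well as the spread within them, and 3 libraries per genotype are too few for a coefficient in each. Lep, Scd1 and Lpl were each fully apart by genotype and the permutation mixed the genotypes, so its p-values also reflect that difference. With the genotype means removed, r with Lep was higher for Fabp4 (0.96) and Pparg (0.92) than for Scd1 (0.91).

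For the other 7 genes r with Lep did not pass after adjustment by exact permutation of the 6 libraries. It was 0.90 for Fabp4 (exact p = 0.0361, adjusted 0.075), 0.87 for Pparg (0.0417, adjusted 0.075), 0.87 for Adipoq (0.0167, adjusted 0.05), 0.71 for Cfd (0.108, adjusted 0.153), 0.69 for Plin1 (0.119, adjusted 0.153), 0.66 for Cidec (0.136, adjusted 0.153) and -0.29 for Plin4 (0.539, adjusted 0.539). Without the 2 libraries farthest from the median of each gene, r was 0.51 for Fabp4, 0.36 for Pparg, 0.93 for Adipoq, 0.57 for Cfd, 0.37 for Plin1, 0.94 for Cidec and -0.87 for Plin4. For Fabp4 and Pparg these were Piezo1 GOF replicates 2 and 3, which left only replicate 1 of that genotype. For the other genes 1 library of each genotype was left out, so these values cannot be compared between genes. Spearman's rho was 0.94 for Cidec and Fabp4 (exact permutation p = 0.0167, adjusted p = 0.0375), 0.89 for Adipoq and Cfd (exact p = 0.0333, adjusted 0.05), 0.83 for Pparg (exact p = 0.0583, adjusted 0.075), 0.77 for Plin1 (exact p = 0.103, adjusted 0.116) and -0.37 for Plin4 (exact p = 0.497, adjusted 0.497). After each library was set against the mean of its own genotype, r of these deviations with Lep was 0.96 for Fabp4, 0.92 for Pparg, 0.91 for Scd1, 0.67 for Adipoq, 0.55 for Cfd, 0.35 for Plin1, 0.31 for Cidec, -0.00 for Plin4 and -0.76 for Lpl, given as a description over 6 libraries. Among the 28 pairs of the 8 genes other than Plin4 and Lpl, r ran from 0.65 to 0.97 with a median of 0.86, whereas Lpl had -0.91 to -0.34 with those 8.

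**Figure D3:**
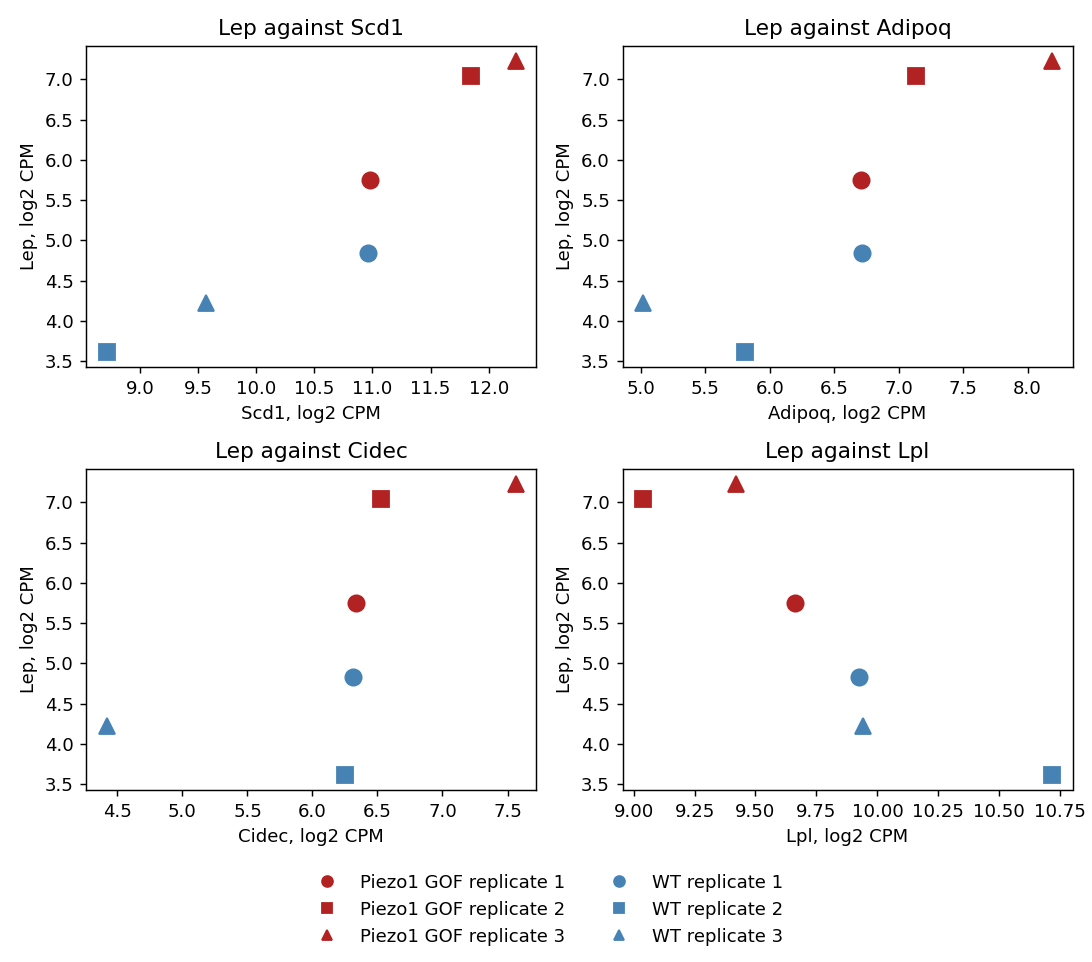
Lep in log2 CPM (vertical axis) against Scd1, Adipoq, Cidec and Lpl in log2 CPM (horizontal axes), 1 point per library, red for Piezo1 GOF and blue for WT. Lep climbs with Scd1 through all 6 libraries and is lower where Lpl is higher, apart from the order of Piezo1 GOF replicates 2 and 3. For Scd1, Adipoq and Cidec alike, the replicate 1 libraries of both genotypes have nearly the same value but different Lep levels.

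Leptin was also set against each of the other genes as a ratio within a library, a step added after the values were seen. Piezo1 GOF replicate 1 and WT replicate 1 were close in Adipoq (104 and 105 CPM), Cidec (80.8 and 79.5 CPM) and Scd1 (2018 and 1988 CPM). Lep was at 53.7 CPM in the first of these libraries and at 28.6 CPM in the second. The first was lower in Fabp4 (165 and 235 CPM), Cfd (342 and 565), Pparg (6.89 and 9.02), Plin4 (211 and 287) and Lpl (810.4 and 973). Plin1 was at 33.0 and 29.2 CPM. Within a genotype, the highest Lep was 2.80 times the lowest in Piezo1 GOF and 2.34 times in WT, so this pair shows little. The ratio of Lep to Adipoq was 0.515, 0.934 and 0.515 in Piezo1 GOF replicates 1 to 3, against 0.272, 0.218 and 0.577 in WT replicates 1 to 3. WT replicate 3, the library with the least Adipoq, lay above 2 of the 3 Piezo1 GOF libraries, so the ratios overlapped (log2 difference 0.94; two-sided exact permutation p = 0.3, adjusted p = 0.3 over 9 ratios). The ratio of Lep to Fabp4 was 0.326, 0.335 and 0.382 in Piezo1 GOF, against 0.121, 0.0915 and 0.136 in WT. It was higher in all 3 Piezo1 GOF libraries, as were the ratios to Pparg, Plin4 and Lpl (log2 differences 1.58, 1.61, 2.81 and 3.26; each with exact permutation p = 0.1, the smallest that 3 against 3 allows, adjusted p = 0.225). Since Lep was higher and Lpl lower in every Piezo1 GOF library, the ratio to Lpl had to be apart, and its test adds nothing to those values. The ratio to Scd1 was 0.0266, 0.0357 and 0.0312 in Piezo1 GOF, against 0.0144, 0.0291 and 0.0246 in WT, with overlap and the smallest log2 difference of the 9 (0.498; exact permutation p = 0.2, adjusted p = 0.3). The ratios to Plin1, Cidec and Cfd overlapped (log2 differences 1.25, 1.29 and 1.15; exact permutation p = 0.3 each, adjusted p = 0.3).

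**Figure D4:**
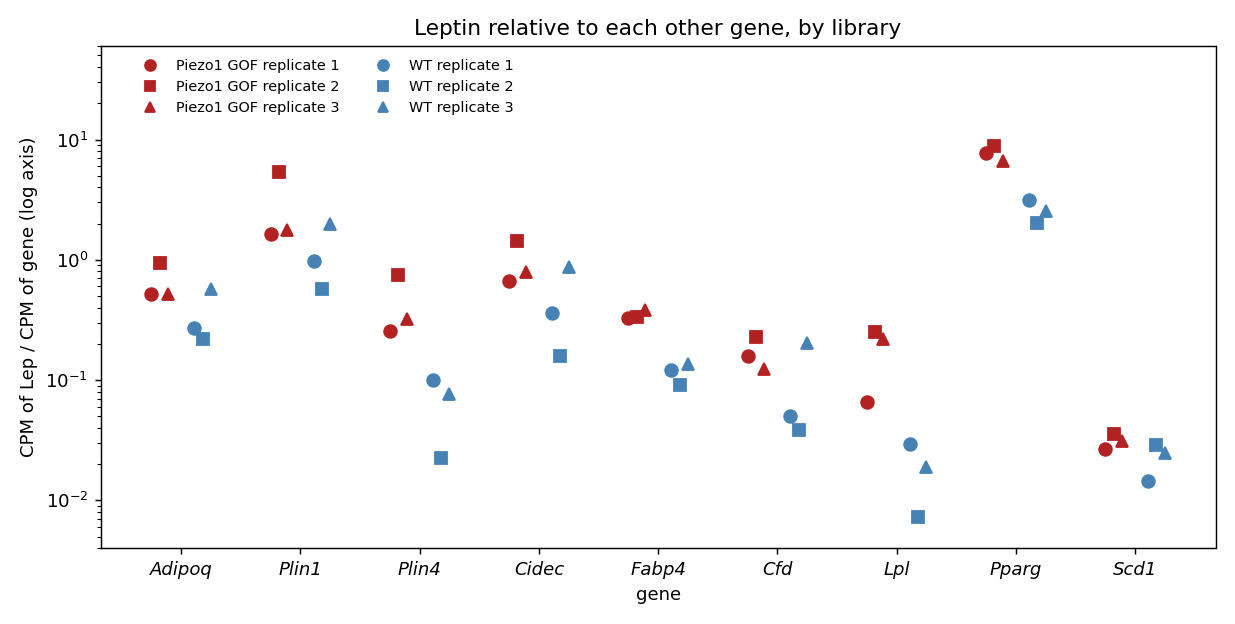
CPM of Lep divided by CPM of each other gene in each library, on a log axis, with Piezo1 GOF in red left of WT in blue. The groups are apart for Plin4, Fabp4, Lpl and Pparg, and the WT replicate 3 triangle lies among the Piezo1 GOF values for Adipoq, Plin1, Cidec and Cfd.

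The genes most like Lep and most like Adipoq over the libraries were not the same. Among 10949 genes with a mean of at least 5 CPM outside the 10, the 5 with the highest r to Lep were Mfap3 (0.99), which encodes a microfibril-associated protein, the kinase gene Camkk2 (0.99), the tendon thrombospondin gene Thbs4 (0.99), the coatomer subunit gene Copg1 (0.99) and the MHC class II loading gene H2-DMa (0.99). Thbs4 had 3390, 5868 and 5261 CPM in Piezo1 GOF, against 2734, 1738 and 2252 CPM in WT. Scd1 was exceeded by 84 of the 10949 genes (0.767%) in its r with Lep, Fabp4 by 448 (4.09%), Pparg by 697 (6.37%) and Adipoq by 743 (6.79%). The others were exceeded by far more, Cfd by 19.3%, Plin1 by 20.2%, Cidec by 21.6%, Plin4 by 59.4% and Lpl by 96.1% of genes. The 5 genes most like Adipoq were Nnat (0.998), which encodes neuronatin, Cebpa (0.99), which encodes the adipogenic factor C/EBP alpha, Piwil2 (0.99), the peptide transporter gene Tap1 (0.99) and D1Ertd622e (0.98). Nnat had 52.4, 88.3 and 245.5 CPM in Piezo1 GOF, against 56.9, 25.04 and 13.1 CPM in WT. Cfd was exceeded by 29 genes (0.265%) in its r with Adipoq, Plin1 by 45 (0.411%), Cidec by 74 (0.676%), Scd1 by 171 (1.56%), Fabp4 by 215 (1.96%), Lep by 219 (2.0%), Pparg by 328 (3.0%), Plin4 by 44.8% and Lpl by 82.0% of genes. With 6 libraries, coefficients near 1 are common among so many genes, and these are descriptions.

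Among other genes of the fat cell, edgeR called 0 of 13 tested mature adipocyte and adipokine genes in either direction, with a median log2 fold change of 0.36 that was -0.12 with Piezo1 GOF replicate 3 left out, and 0.76 and 1.10 with replicate 1 of Piezo1 GOF or of WT left out. Before adjustment, p was under 0.05 for 4 higher and 2 lower of the 13 genes. The counts at unadjusted p for this list and the next ones stand beside 10.2% of all genes higher and 9.59% lower, and with so few genes a list nothing is read from their distance to it. The retinol carrier gene Rbp4, named after its values were seen, had 16.6, 23.9 and 25.9 CPM in Piezo1 GOF, against 13.5, 6.77 and 3.39 CPM in WT (log2 fold change 1.49 ± 0.45; edgeR adjusted p = 0.162), with no overlap. Resistin (Retn), likewise named afterwards, had 13.1, 29.9 and 27.9 CPM in Piezo1 GOF, against 16.97, 8.62 and 3.17 CPM in WT (1.31 ± 0.54; edgeR adjusted p = 0.233). Gpihbp1, also named afterwards, went the other way, with 12.9, 12.7 and 19.9 CPM in Piezo1 GOF, against 20.5, 52.6 and 24.7 CPM in WT (-1.10 ± 0.38; edgeR adjusted p = 0.184), with no overlap. Of the 13 genes, 8 had a positive and 5 a negative fold change. The most abundant genes of this list did not pass the test: Car3, the carbonic anhydrase of fat and slow muscle, was at -0.60 ± 0.47, the fatty acid translocase gene Cd36 at -0.38 ± 0.27, and the insulin-dependent glucose transporter gene Slc2a4 at -1.09 ± 0.43 (edgeR adjusted p = 0.217), while Tusc5 was at 0.73 ± 0.49.

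Of 15 tested genes of the droplet coat and of lipolysis, edgeR called 0, with 3 higher and 3 lower when p is left unadjusted and a median log2 fold change of -0.14 (0.18 without WT replicate 1). The hormone-sensitive lipase gene Lipe was at 0.73 ± 0.42, the triglyceride lipase gene Pnpla2 at -0.63 ± 0.36, the monoglyceride lipase gene Mgll at 0.29 ± 0.24 and Plin3 at -0.22 ± 0.27. Of 22 genes of fatty acid and triglyceride synthesis, edgeR called 0, with 1 higher and 4 lower when p is left unadjusted and a median of 0.26 (-0.02 without Piezo1 GOF replicate 3). Fatty acid synthase (Fasn) had 283, 194 and 406 CPM in Piezo1 GOF, against 236, 177 and 110.4 CPM in WT (0.76 ± 0.36; edgeR adjusted p = 0.284). Acacb, the acetyl-CoA carboxylase of oxidative tissue, was at -1.46 ± 0.48 and the acyl-CoA synthetase gene Acsl1 at -0.57 ± 0.27. 

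Of 18 tested transcription factors linked to fat cell formation, not all of which promote it, edgeR called 0. When p is left unadjusted, 1 was higher and 5 were lower. The median log2 fold change was -0.57 (-0.15 without WT replicate 1). The 1 higher gene was Cebpa, among the genes most like Adipoq above and otherwise outside the choice by abundance. It had 28.9, 33.1 and 65.4 CPM in Piezo1 GOF, against 23.1, 13.1 and 8.03 CPM in WT (1.53 ± 0.43; edgeR adjusted p = 0.145). The 5 lower genes were Gata2 (-1.17 ± 0.28; edgeR adjusted p = 0.111; no overlap), Ppara (-1.82 ± 0.58), Klf15 (-1.25 ± 0.47), Ppargc1a (-0.94 ± 0.33; no overlap) and Rxra (no overlap). Klf15 had 77.3 CPM in WT replicate 2, against 23.7 and 22.2 CPM in WT replicates 1 and 3 and 14.4 to 22.4 CPM in Piezo1 GOF. The part of muscle in these values was not tested. Rxra, the partner receptor of PPAR gamma, was at -0.70 ± 0.29, Klf4 at 0.46 ± 0.38, Ebf1 at 0.27 ± 0.24 and Zfp423 at 0.34 ± 0.21. Of 11 genes of leptin and adiponectin reception and signalling, edgeR called 0, with 2 higher and 0 lower when p is left unadjusted and a median of -0.10 (0.04 without WT replicate 2). The leptin receptor gene Lepr had 87.0, 422 and 146 CPM in Piezo1 GOF, against 72.0, 97.1 and 56.8 CPM in WT, so the high value was that of Piezo1 GOF replicate 2 (1.53 ± 0.53; edgeR adjusted p = 0.186). The adiponectin receptor gene Adipor1 was at -0.36 ± 0.30, Cdh13, which encodes the adiponectin-binding T-cadherin, at -0.10 ± 0.27, and Stat3, a transducer of the leptin signal, at -0.18 ± 0.20.

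Genes of heat-producing fat did not share the higher values of Lep. Ucp1, the uncoupling protein that defines brown fat, had a count of 0 in all 6 libraries, which allows up to 3 counts, or 0.191 to 0.39 CPM by library, for counting error only. The 6 tested genes of this list had a median log2 fold change of -0.92 (-0.42 without WT replicate 1), with 0 called by edgeR and 0 higher and 2 lower when p is left unadjusted. Cox8b was at -1.10 ± 0.28, Cpt1b at -1.38 ± 0.48, Cox7a1 at -0.74 ± 0.44 and Dio2 at -0.22 ± 0.41, and muscle also uses Cox8b, Cpt1b and Cox7a1. Of 11 tested markers of adipocyte progenitors, edgeR called 0, with 4 higher and 1 lower when p is left unadjusted and a median of 0.65 (0.32 without WT replicate 2). Ly6a, which encodes Sca-1, was at 1.12 ± 0.29 (edgeR adjusted p = 0.13), Pdgfra at 0.65 ± 0.26, Cd34 at 0.50 ± 0.29 and Pdgfrb at -0.37 ± 0.30. Tendon fibroblasts express several of these progenitor markers too.

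Marker lists of other cell types were summed in each library. EdgeR called 0 of the tested genes in every one of these 6 lists. The edgeR adjusted p of Lep, 0.0572, was shared by the macrophage markers Adgre1, C1qa, C1qb, C1qc, Cd14, Ctss, Lyz2 and Mrc1 and the tenocyte marker Scx. Before adjustment, edgeR p was 2.80e-05 for Scx and 0.000306 for Lep. The summed level of the 10 fat genes was 3824, 5751 and 8320 CPM in Piezo1 GOF replicates 1 to 3, against 4299, 3261 and 2302 CPM in WT replicates 1 to 3. Most of that sum came from Scd1 and Lpl together, so it is no measure of fat cell content. Scd1 gave 2018, 3681 and 4815 CPM of it in Piezo1 GOF, against 1988, 419.8 and 758 CPM in WT. Lpl gave 810.4, 526 and 685 CPM, against 973, 1682 and 982 CPM. In bulk RNA, fewer cells of a type and less RNA per cell cannot be told apart. The 16 skeletal muscle markers summed to 24264 to 75701 CPM in Piezo1 GOF and to 77295 to 171458 CPM in WT, all 16 with negative fold changes (median -0.89, and -0.43 without Piezo1 GOF replicate 2). Lpl ranked the 6 libraries in the same order as this muscle sum, and the part of muscle in the Lpl and Plin4 values was not tested. With the muscle markers, Rn45s and Lars2 taken out before scaling, Lep was at 2.51 and Lpl at -0.83 on the log2 scale. The 15 macrophage markers summed to 705 to 883 CPM in Piezo1 GOF and to 198 to 311 CPM in WT, with all 15 positive (median 1.59), and the 12 tenocyte markers to 28651 to 50179 CPM in Piezo1 GOF and 5138 to 14792 CPM in WT, with 11 of 12 positive (median 1.70). The 12 endothelial markers summed to 679.5 to 997 CPM in Piezo1 GOF and to 1126 to 1735 CPM in WT, with 9 of 12 negative (median -0.44). At unadjusted p under 0.05, 12 of 15 macrophage, 11 of 12 tenocyte and 1 of 12 endothelial markers were higher, and 4 of 12 endothelial and 2 of 16 muscle markers lower, beside 10.2% and 9.59% of all genes. The part of macrophages and of endothelium in the Fabp4 and Scd1 values was not tested. Of 10 markers of sebaceous gland and keratinocytes, 2 could be tested, Dsg3 was at 0 in all libraries, and Krt5 and Krt14 were at 0 in all libraries except WT replicate 3, where they had 0.566 and 0.226 CPM. The list summed to 31.1 to 57.8 CPM in Piezo1 GOF and 21.0 to 34.3 CPM in WT, with most of it from Soat1, which many cell types express. The 4 markers of muscle satellite cells summed to 1.705 to 13.5 CPM in Piezo1 GOF and to 9.45 to 26.4 CPM in WT. The 3 tested ones had a median of -1.09 (-2.08 and -0.61 with Piezo1 GOF replicates 1 or 2 left out in turn), with 0 higher and 1 lower at unadjusted p under 0.05.

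**Figure D5:**
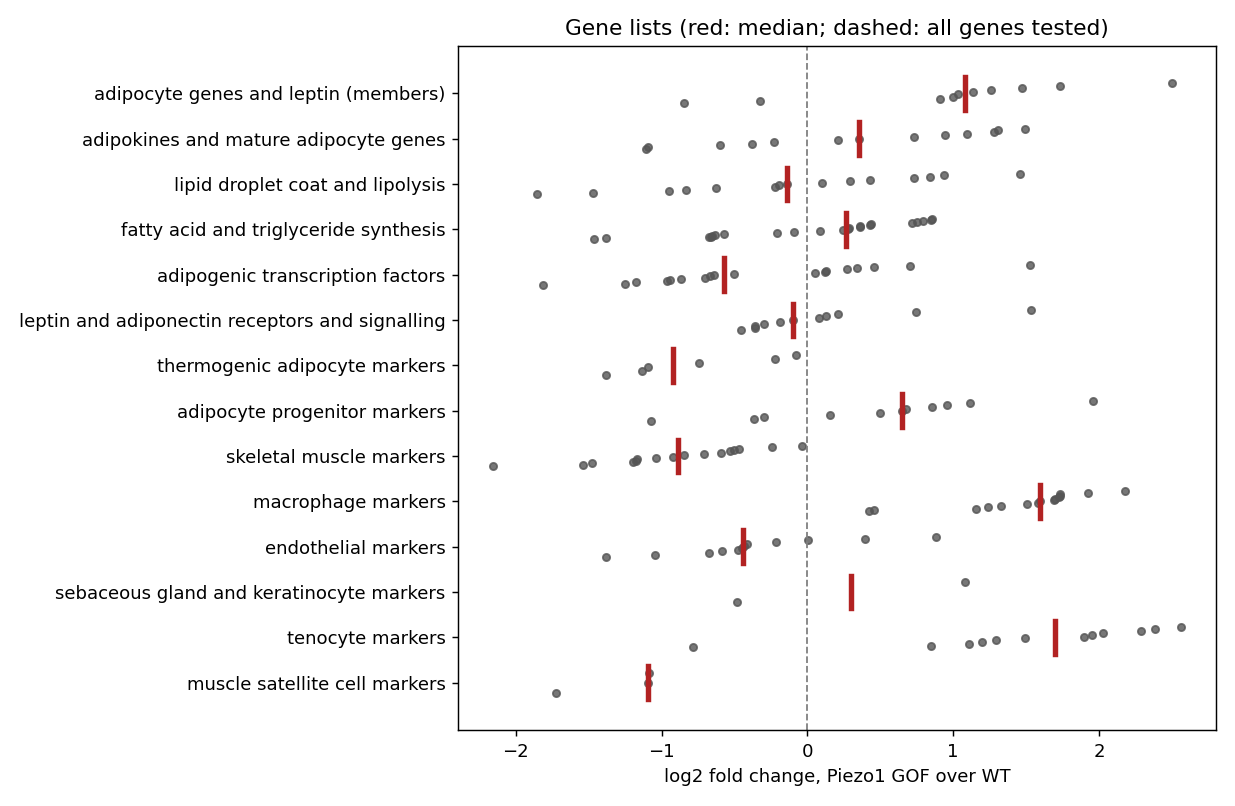
Log2 fold change, Piezo1 GOF over WT, of each tested gene in the 14 lists, with the list median in red and the median of all genes tested as a dashed line. The 10 fat genes have a median of 1.08, macrophage and tenocyte markers lie mostly to the right of 0, and skeletal muscle and heat-producing fat genes lie to the left.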

How the data were processed

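The authors deposited 1 table of estimated counts, 1 row per gene and 1 column per library, with no scaling. The submitters' processing notes name STAR, RSEM, bcl2fastq and edgeR, without versions or roles, and the build mm10. Annotation and strand setting: not given in the sources used here. Per the labels' protocols, total RNA was converted with the RamDA-seq kit, which does not prime from poly(A) tails alone. Library totals were 8131527 to 17180856 counts, and 15595 to 16594 genes were detected.

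Counts were rounded, filtered with filterByExpr (minimum count 10; 13466 of 24411 genes), scaled by TMM (factors 0.897 to 1.10) and tested with edgeR's quasi-likelihood test, with adjustment over all genes and a threshold of 0.05. The common dispersion was 0.113. On simulated counts for 13466 genes with 50 genes changed at each size, this comparison called 18% of the 2-fold, 80% of the 4-fold, 96% of the 8-fold and 90% of the 16-fold genes, with 8 false calls. Each gene was drawn on its own, so shifts shared by many genes of a library, as in the muscle markers, were not simulated. Log2 CPM used a prior count of 2. Replicates of a genotype were compared by chi-square, and at 41.5 to 143 per degree of freedom none was a duplicate. The members and lists were chosen with earlier results of these data known, and the ratios to Lep were added after the values were seen. Genes named from the 13 other lists were the 4 most abundant tested genes of each and any past the threshold, of which there were 0. For the lists of other cell types the sums, the counts, the medians, the markers at 0 and the markers that shared the adjusted p of Lep are given. Ucp1, Krt5, Krt14 and Dsg3 are given as defining markers at or near 0, and Rbp4, Retn and Gpihbp1 are marked in the text as chosen after their values were seen. Gata2, Ppara, Klf15 and Ppargc1a are given because their unadjusted edgeR p was under 0.05. The 5 genes most like Lep and Adipoq were those with the highest r of log2 CPM over the 6 libraries. Sequences are from RefSeq and coordinates from GENCODE M21. The alternatives were other scaling, no filter, DESeq2, limma voom, a replicate block and leaving out each library. Software was R 4.3.3, edgeR 4.0.16, limma 3.58.1, DESeq2 1.42.0, Python 3.11.15, scipy 1.17.1, pandas 2.3.3 and matplotlib 3.10.9.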

Additional observations from a re-analysis of the deposited data

How the results depend on the processing

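Across all genes, 2 were called higher and 0 lower. The counts were 141 and 24 without a filter on low counts, 514 and 377 by DESeq2, and 97 and 19 by limma voom. Leaving out 1 library gave 0 to 182 higher and 0 to 46 lower, with every call among these made without WT replicate 1. Of the 10 fat genes, 0 were called higher, against 3 by DESeq2, 1 by voom, 1 without a filter, and 0 to 1 with a library left out, and 0 were called lower under any of these. Their median log2 fold change of 1.08 was 1.75 by voom and 0.55 to 1.49 with a library left out. The Plin4 log2 fold change of -0.32 was 0.062 by voom and -0.88 to 0.10 with a library left out, positive only without WT replicate 2 among these, and no other gene of the 10 changed sign under any alternative run. The correlation of Lep with Lpl was -0.91 with RLE size factors (adjusted p = 0.05), no longer under the threshold. Libraries with the same replicate number had correlations of deviations of -0.21, -0.14 and -0.05, and those with different numbers -0.02 to 0.17. These values gave no sign of pairing by number, but they cannot tell whether samples were collected or processed together. With the replicate block, 0 genes were called higher and 0 lower, and the Lep log2 fold change was 2.48 (edgeR adjusted p = 0.264). The causes of these changes were not tested.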
